A study of Mus musculus with 4 samples.

Results

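Genes of the major histocompatibility complex (MHC) class II pathway were followed through 4 RNA-seq libraries of natural killer (NK) cells from mouse spleen. The set holds 10 genes chosen by name: the antigen-binding chains H2-Aa, H2-Ab1 and H2-Eb1, the invariant chain Cd74, the peptide editors H2-DMa, H2-DMb1, H2-DMb2, H2-Oa and H2-Ob, and the transactivator Ciita. All 10 were found among the 37305 rows of the deposited expression table. Ciita stood on 2 rows, of which the one with the higher mean was used. The cells came from C57BL/6 mice at postnatal day 56 and spent 24 hours in culture with 50 ng/ml of IL-15. One group of 2 libraries then received DKK2 (Dickkopf 2, a secreted ligand of Wnt co-receptors) at 200 ng/ml for another 24 hours, and the control group of 2 libraries received mock treatment for the same time. IL-15 was thus common to both groups. The labels do not say whether replicates came from separate animals or cultures, so the spread between them may be technical.

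MHC class II molecules are heterodimers of an alpha and a beta chain that display peptides from endosomes to CD4 T cells. The invariant chain escorts new dimers to the endosome and plugs their groove, H2-DM exchanges the remaining fragment for other peptides, and H2-O restrains H2-DM. In the mouse the main producers are B cells, dendritic cells and macrophages, so that class II transcripts in an NK culture can also come from such cells. Transcription depends on CIITA, a co-activator that does not bind DNA itself but docks on a complex of RFX, CREB and NF-Y proteins assembled on the X and Y boxes of the promoters. C57BL/6 mice carry the b haplotype of the H2 complex, which makes no functional H2-Ea chain.

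The X and Y boxes are shown first, because the complex on which CIITA docks assembles on them. Ciita itself is in the set as the regulator. Promoter windows from RefSeq (build GRCm38.p6, 250 bases before to 50 after an annotated start) were at hand for 7 of the 10 genes, all on chromosome 17. H2-Ab1, Cd74 and Ciita had none. The letters searched, on both strands, were TGATTGG for the Y box and AAC, any 2 bases and then ATGATG for the X box. Both were written down after these promoters had been read. The next lines run 5′ to 3′ on the coding strand, with capitals for the Y box letters and for the X box letters (only the leading AAC where the rest did not match).
H2-Aa, chr17:34287863-34287910 (minus strand): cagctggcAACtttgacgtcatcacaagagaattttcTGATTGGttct
H2-Eb1, chr17:34305770-34305816 (plus strand): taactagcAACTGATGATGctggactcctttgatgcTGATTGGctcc
H2-DMb1, chr17:34153091-34153138 (plus strand): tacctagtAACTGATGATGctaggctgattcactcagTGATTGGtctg
H2-DMb2, chr17:34145120-34145167 (plus strand): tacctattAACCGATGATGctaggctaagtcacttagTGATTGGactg
H2-Oa, chr17:34092297-34092344 (plus strand): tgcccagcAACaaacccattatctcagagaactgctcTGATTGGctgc
H2-Ob, chr17:34238812-34238856 (plus strand): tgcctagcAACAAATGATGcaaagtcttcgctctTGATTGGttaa

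The Y box letters stood in 6 of the 7 promoters with a window, against 7.82% of all 32851 windows. The X box letters stood in full in 4 (H2-Eb1, H2-DMb1, H2-DMb2 and H2-Ob), against 0.137% of all windows. Both sets of letters occurred in 1 window for 7 symbols in all, of which 4 are these genes and the others are Nubp2, Spsb3 and Gm38969. An AAC stood 26 to 30 bases before the Y box letters in all 6 promoters shown, each of which holds those letters. Among all 2568 windows with the Y box letters it stood so in 176, which is 0.536% of all windows. The range covers the 26 to 29 bases found in the 6 promoters shown. These had been read beforehand, so the count of 6 is no independent result. Neither of the 2 windows of H2-DMa held the letters, which says only that they are not in these windows. A match of letters is a description and not a measured binding site.

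**Figure D1:**
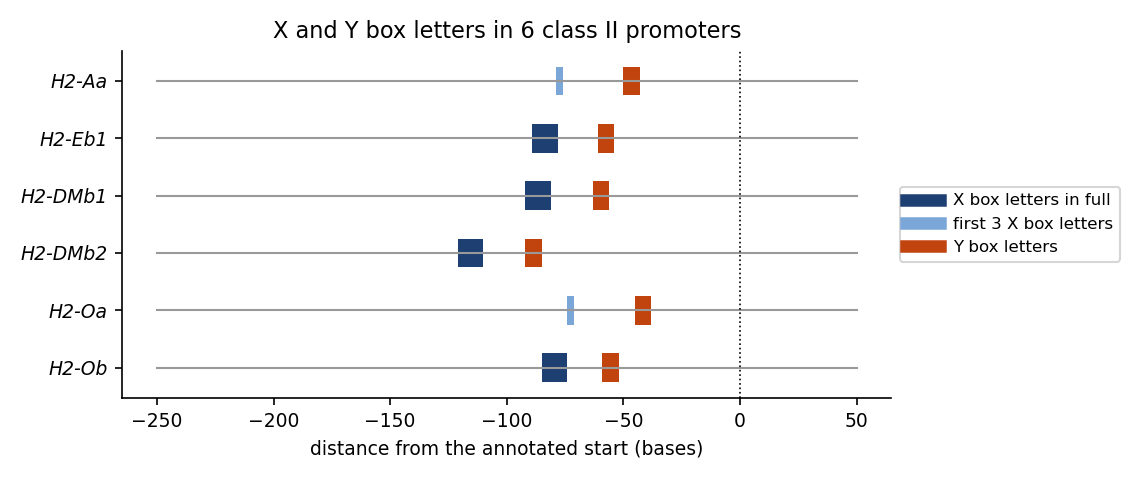
Positions of the X box letters (dark blue in full, light blue where only the leading AAC matched) and of the Y box letters (rust red) in 6 class II promoters, with the distance from the annotated start in bases on the x axis. The Y box letters begin between 92 and 45 bases before the start, and the AAC lies 26 to 29 bases before them.

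Expression was given as FPKM, that is fragments per kilobase of transcript and per fixed number of mapped fragments, which allows levels to be compared between genes. Of 10 NK cell markers, all but the integrin Itga2 were at 34.5 FPKM or more in every library. The table holds no read totals, so the most frequent low value, scaled by transcript length, was taken as 1 fragment. In each library 160 to 193 genes lay within 5% of it, of 2118 to 2292 genes used. Some values are far lower, such as Siglech at 0.00156 FPKM in control replicate 1, and need not be whole fragments. By this estimate DKK2 replicates 1 and 2 reached 0.399 and 0.401, and control replicate 2 0.352, of the depth of control replicate 1. One fragment on 1 kb of usable transcript length was worth 0.0164 FPKM in control replicate 1 and 0.0408 to 0.0466 FPKM in the others. Control replicate 1 also stood apart in its markers: 9 of 10 B cell markers and 8 of 12 monocyte and macrophage markers were under 0.1 FPKM there. Of the B cell markers, 5 were under 0.1 FPKM in DKK2 replicate 1 and 1 each in DKK2 replicate 2 and control replicate 2. No monocyte or macrophage marker was that low in these libraries. The comparisons of DKK2 with control are therefore also given without control replicate 1.

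The antigen-binding chains had the widest range of the set, with the highest library 99.9 to 159.6 times above the lowest. H2-Aa, the alpha chain of the I-A molecule, was at 199 and 153 FPKM in the DKK2 libraries, against 1.25 and 88.0 FPKM in the controls. Both DKK2 values were above both control values, and control replicate 1 was 70.4 times below control replicate 2. H2-Ab1, the beta chain of the same molecule, was at 184 and 108 FPKM under DKK2, whereas controls had 1.73 and 48.2 FPKM. The groups again did not overlap, with DKK2 replicate 1 highest. H2-Eb1, the beta chain of I-E, was at 67.4 and 58.8 FPKM under DKK2, whereas controls had 0.675 and 31.3 FPKM. H2-Ea-ps, a row of the alpha chain locus that is not functional in this strain, was listed at 0 in both DKK2 libraries and in control replicate 1 and at 0.0188 FPKM in control replicate 2. In bulk RNA of this kind, fewer cells of a type and less RNA per cell cannot be told apart.

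The proportions among the chains were closer than their levels. H2-Aa stood to H2-Eb1 as 2.96 and 2.60 to 1 in the DKK2 libraries, against 1.85 and 2.81 to 1 in the controls. H2-Aa stood to H2-Ab1 as 1.09 and 1.42 to 1 with DKK2, against 0.722 and 1.83 to 1 without. Control replicate 1 had the lowest of both ratios, on about 70 fragments for H2-Aa, 106 for H2-Ab1 and 60 for H2-Eb1. In the other libraries the same genes rested on about 981 to 4484 fragments.

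Cd74, the invariant chain, is also a surface receptor for the cytokine MIF. It was at 192 and 275.5 FPKM under DKK2, whereas controls had 3.89 and 127 FPKM. Here DKK2 replicate 2 was the highest library, not DKK2 replicate 1, which was highest for H2-Aa, H2-Ab1 and H2-Eb1. The ratio of Cd74 to H2-Aa was 0.962 and 1.80 in the DKK2 libraries, against 3.12 and 1.44 in the controls.

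**Figure D2:**
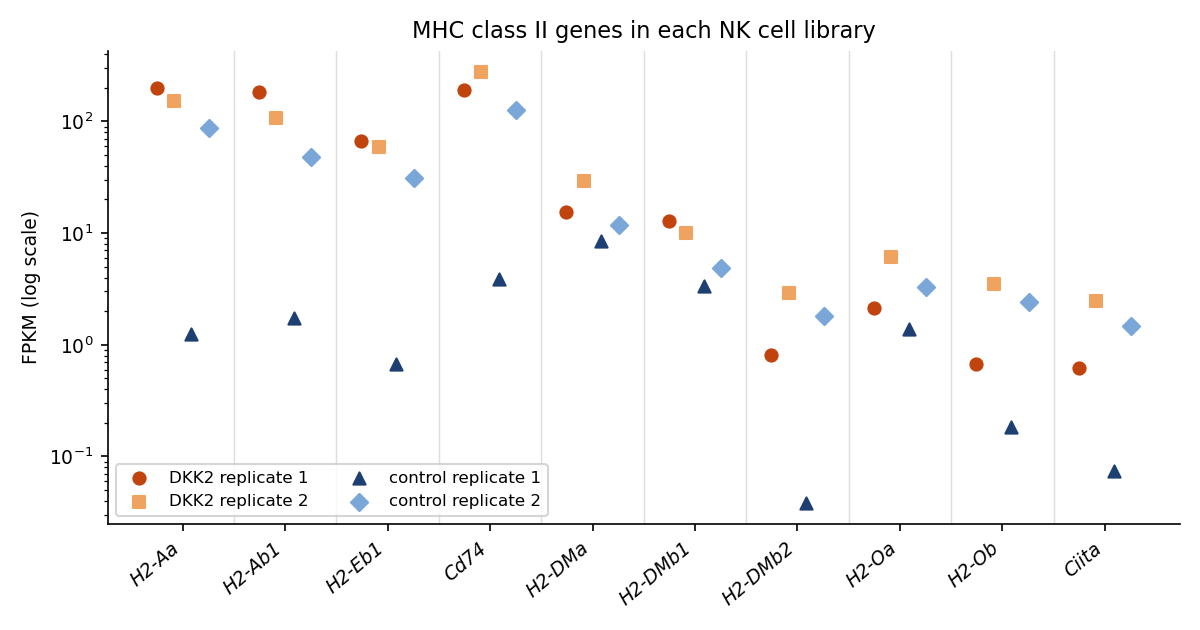
FPKM of each of the 10 class II genes in each library, on a log axis, with DKK2 libraries in orange tones and controls in blue tones. Control replicate 1 is lowest for all 10 genes, from 8.56 FPKM for H2-DMa down to 0.0386 FPKM for H2-DMb2.

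H2-DMa and H2-DMb1 were less spread between libraries, and H2-DMb2 was not. H2-DMa, the alpha chain of the editor, was at 15.4 and 29.4 FPKM under DKK2, whereas controls had 8.56 and 11.8 FPKM. The controls differed by a factor of 1.38 here. H2-DMb1, the main beta chain, was at 12.8 and 10.1 FPKM under DKK2, whereas controls had 3.34 and 4.90 FPKM. The controls were close to each other, and both DKK2 libraries lay above them. H2-DMb2, the second beta chain gene, was at 0.812 and 2.94 FPKM under DKK2, whereas controls had 0.0386 and 1.80 FPKM, so the groups overlapped. The lowest of these values rests on about 3 fragments. The transcripts of H2-DMb1 and H2-DMb2 are 95.5% identical over 1058 aligned bases and share an identical run of 221 bases. The sources used here do not say how fragments matching both were shared, and the split between the 2 genes is uncertain.

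H2-Oa and H2-Ob, the chains of the H2-DM inhibitor, are known in the mouse above all from B cells and thymic epithelium. H2-Oa was at 2.16 and 6.08 FPKM in the DKK2 libraries, against 1.38 and 3.27 FPKM in the controls. H2-Ob was at 0.666 and 3.49 FPKM under DKK2, whereas controls had 0.185 and 2.42 FPKM. In both genes each group held 1 low library and 1 higher one, and the groups overlapped.

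Ciita, the transactivator, was at 0.620 and 2.44 FPKM under DKK2, whereas controls had 0.0741 and 1.47 FPKM, and its groups overlapped too. Its second row was far lower in all libraries, with 0.0707 and 0.125 FPKM under DKK2 and 0.00857 and 0.0798 FPKM in controls. H2-Eb2, a further class II beta gene that was below the filter for tests, followed the same order at 0.226 and 1.12 FPKM under DKK2, whereas controls had 0.0246 and 0.771 FPKM.

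Control replicate 1 differed from the other libraries in the make-up of these transcripts as well as in their sum. The 10 genes summed to 674.5 and 649 FPKM in the DKK2 libraries, against 21.1 and 320.0 FPKM in the controls. The 3 antigen-binding chains made up 66.8% and 49.2% of that sum with DKK2, against 17.3% and 52.3% without. The H2-DM chains made up 4.29% and 6.54% with DKK2, against 56.5% and 5.80% without. H2-DMa led the order of levels in control replicate 1, ahead of Cd74 and H2-DMb1, whereas in the other 3 libraries it ranked behind Cd74 and all the antigen-binding chains. The level of H2-DMa was 0.0770 and 0.192 of that of H2-Aa with DKK2, against 6.86 and 0.135 in the controls. About 939 fragments lay behind H2-DMa in control replicate 1.

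**Figure D3:**
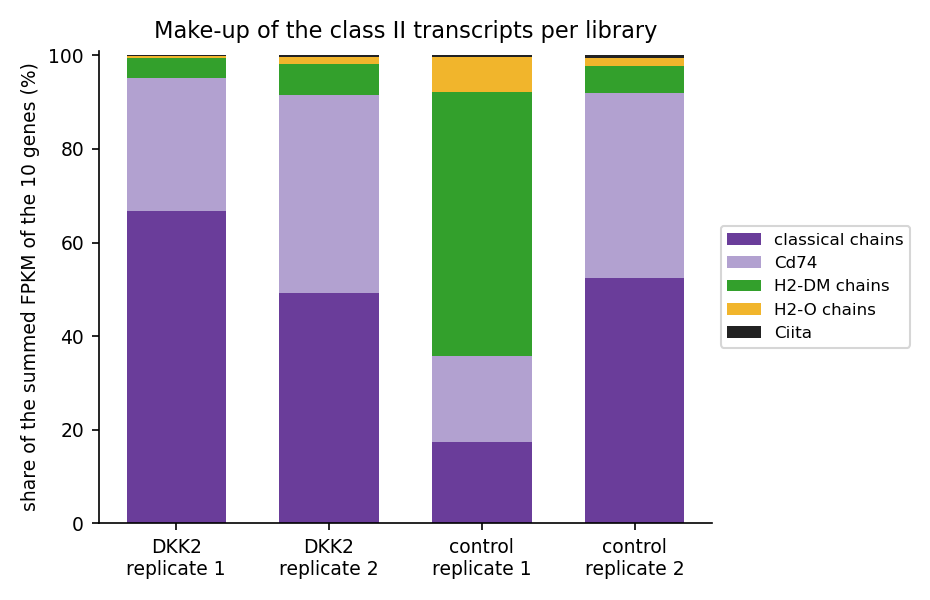
Share of the summed FPKM of the 10 genes taken by each role, in percent, for each library. H2-DM chains take 56.5% in control replicate 1 and 4.29% to 6.54% in the other libraries.

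In the comparison of DKK2 with control, none of the 10 genes passed. The test was limma's moderated fit on log2(FPKM + 1), two-sided, and p-values were adjusted by Benjamini-Hochberg across 12275 genes that averaged 1 FPKM or more. All 10 genes were above that filter, though Ciita and H2-DMb2 only through the DKK2 libraries, since their control means were 0.773 and 0.920 FPKM. By adjusted p, 0 of the 10 passed, against 0.0326% of all genes tested (0.00815% upward). Before adjustment limma put 2 of the 10, H2-DMb1 and H2-Ab1, under a p of 0.05, both upward, against 1.84% of all genes (1.08% upward). In 6 of the 10 (H2-Aa, H2-Ab1, H2-Eb1, Cd74, H2-DMa and H2-DMb1) the DKK2 values exceeded each control value, against 11.8% of all genes, and in the other 4 the groups overlapped. In 0 of the 10 they were below each control value, against 14.8% of all genes. All 10 were lowest in control replicate 1, against 18.0% of all genes. All 10 fitted values were above 0, as were those of 5357 of the 12275 genes, and their median was 1.15, where the median of all genes tested was -0.05.

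H2-DMb1 had the smallest error relative to its size, with a log2 fold change of 1.29 ± 0.31 (SE; 95% interval 0.50 to 2.08; n = 2 libraries a group; limma adjusted p = 0.9996). For H2-Ab1 it was 3.61 ± 1.37 (0.06 to 7.16), and for H2-Aa 3.63 ± 1.71 (-0.80 to 8.07). Cd74 had 3.21 ± 1.53, H2-Eb1 3.12 ± 1.39 and H2-DMa 1.01 ± 0.39. H2-DMb2 had 0.65 ± 0.69, H2-Oa 0.57 ± 0.55, H2-Ob 0.44 ± 0.76 and Ciita 0.54 ± 0.64. The limma adjusted p was 0.9996 for every one of the 10. The low genes depend on the pseudocount: with 0.01 in place of 1, H2-DMb2 had 2.39, Ciita 1.82 and H2-Ob 1.16, and the median of the 10 was 2.103.

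When control replicate 1 was left out, the fitted values of the antigen-binding chains shrank to 0.98 ± 0.39 for H2-Aa, 1.53 ± 0.50 for H2-Ab1 and 0.98 ± 0.36 for H2-Eb1. Cd74 then had 0.85 ± 0.43, while H2-DMb1 (1.07 ± 0.44) and H2-DMa (0.79 ± 0.58) moved less. H2-Ob (-0.32 ± 0.75), H2-DMb2 (-0.07 ± 0.61) and Ciita (-0.07 ± 0.59) turned negative. The median of the 10 was 0.82. No gene passed limma in that fit, at an adjusted p of 1 for each of the 10, and 0 of the 10 were under an unadjusted p of 0.05, against 1.22% of all genes. When control replicate 2 was left out instead, H2-Aa had 6.29 ± 0.40, H2-Ab1 5.70 ± 0.51, H2-Eb1 5.25 ± 0.40 and Cd74 5.56 ± 0.43, at limma adjusted p-values of 0.168 to 0.1835. The single control left in either fit is assumed to vary like the DKK2 libraries. The same 6 genes were above control replicate 2 in both DKK2 libraries, against 25.5% of all genes, and 0 of the 10 were below it in both, against 23.8%.

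**Figure D4:**
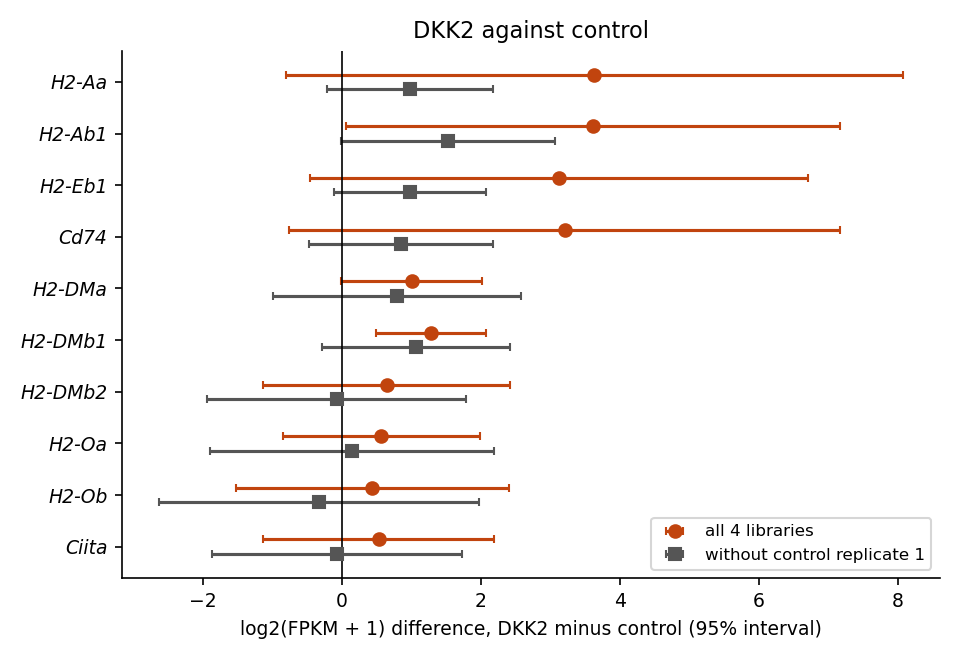
Fitted log2(FPKM + 1) difference of each gene, DKK2 minus control, with its 95% interval from limma, for all 4 libraries (circles) and without control replicate 1 (squares). The points of H2-Aa, H2-Ab1, H2-Eb1 and Cd74 lie above 3 with all libraries and between 0.85 and 1.53 without control replicate 1.

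Measured against control replicate 2, the 10 genes fell into 2 patterns, a division made after the values were seen. Over the 12038 genes tested with a value above 0 in control replicate 2, the median factor was 0.965 in DKK2 replicate 1 and 1.04 in DKK2 replicate 2. In DKK2 replicate 2 all 10 were above control replicate 2, by factors of 1.44 to 2.48. In DKK2 replicate 1, 6 were above it, from 1.30 for H2-DMa to 3.81 for H2-Ab1. The other 4 were below it, with factors of 0.660 for H2-Oa, 0.450 for H2-DMb2, 0.421 for Ciita and 0.275 for H2-Ob.

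Markers of B cells, which share none of the 10 genes, were low in the same library. All 10 B cell markers in the table were lower in DKK2 replicate 1 than in control replicate 2, at a median ratio of 0.0966, while their median ratio was 1.38 in DKK2 replicate 2. Over all genes tested these median ratios were 0.965 and 1.04. Cd79b, a chain of the B cell receptor complex, was at 3.62 and 17.7 FPKM under DKK2, whereas controls had 0.508 and 9.91 FPKM. Its partner Cd79a was at 0.362 and 4.26 FPKM beside 0.0523 and 2.62 FPKM in controls. Ms4a1, which encodes CD20, was at 0.355 and 3.09 FPKM beside 0.0263 and 3.23 FPKM in controls. The order of the libraries for H2-DMb2, H2-Oa, H2-Ob and Ciita, with control replicate 1 lowest, DKK2 replicate 1 next and DKK2 replicate 2 highest, was also that of Cd79a and Cd79b. The B cell list summed to 4.995 and 36.6 FPKM under DKK2, whereas controls had 0.694 and 23.0 FPKM, and none of its members was listed at 0. The part of B cell RNA in the class II values was not tested.

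Most markers of monocytes and macrophages were high where the antigen-binding chains were high. Of 12 such markers 10 were above control replicate 2 in DKK2 replicate 1 (median ratio 1.94) and 11 in DKK2 replicate 2 (median ratio 1.85). The median ratios of all genes tested were 0.965 and 1.04. Adgre1 and Cd14 were below control replicate 2 in DKK2 replicate 1, at ratios of 0.605 and 0.221. Both had the library order of H2-DMb2, H2-Oa, H2-Ob and Ciita. Lyz2, a lysozyme of myeloid cells, was at 552 and 209 FPKM under DKK2, whereas controls had 0.889 and 142 FPKM. Ms4a7, a macrophage surface protein, was at 27.3 and 19.9 FPKM beside 0.0727 and 10.6 FPKM in controls. Cd68 was at 39.6 and 83.3 FPKM beside 6.86 and 35.3 FPKM in controls. Ccr2, a chemokine receptor of this list, was at 461 and 311 FPKM beside 352 and 354.5 FPKM in controls, so that it was not low in control replicate 1, and NK cells make it too. Without Ccr2 the list summed to 702.5 and 396 FPKM under DKK2, whereas controls had 8.35 and 235 FPKM. C1qa and C1qc were listed at 0 in control replicate 1. The part of macrophage RNA in the class II values was not tested.

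**Figure D5:**
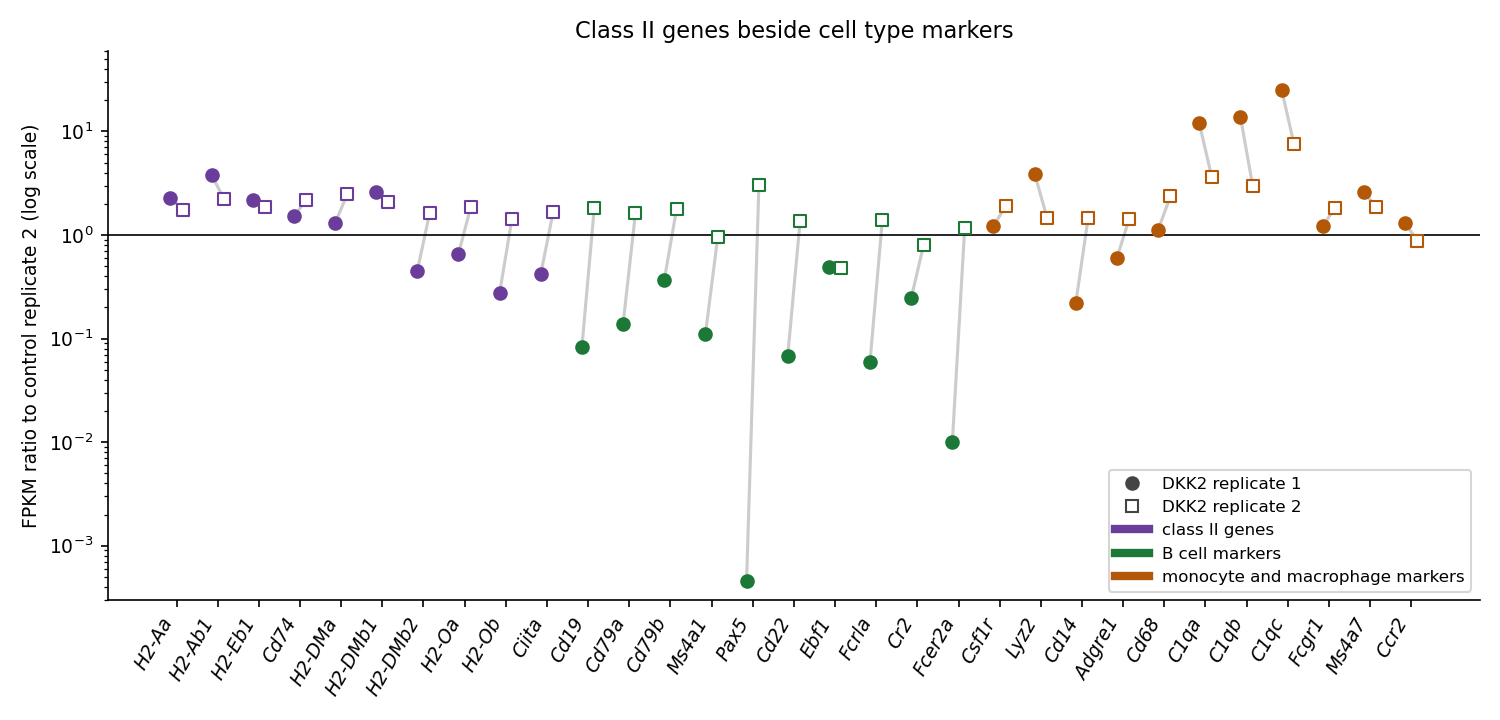
FPKM in DKK2 replicate 1 (filled circles) and DKK2 replicate 2 (open squares) divided by that in control replicate 2, on a log axis, for the 10 class II genes (purple), 10 B cell markers (green) and 11 monocyte and macrophage markers (brown). In DKK2 replicate 1 the 10 B cell markers and H2-DMb2, H2-Oa, H2-Ob and Ciita lie below 1, and 9 of the 11 monocyte and macrophage markers plotted lie above 1.

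Dendritic cell markers were low in every library. Their sum was 7.61 and 7.09 FPKM under DKK2, whereas controls had 4.58 and 8.81 FPKM. Control replicate 1 was lowest for 5 of the 9 markers and highest for 1, and it was lowest for 18.0% of all genes tested. Zbtb46, a transcription factor of conventional dendritic cells, was at 1.81 and 2.37 FPKM beside 1.65 and 2.04 FPKM in controls. Siglech was much lower in control replicate 1, with 0.831 and 0.782 FPKM under DKK2 and 0.00156 and 0.940 FPKM in controls. Wdfy4 was lowest in DKK2 replicate 1, with 0.584 and 1.70 FPKM under DKK2 and 1.34 and 2.25 FPKM in controls. Cd209a was listed at 0 in DKK2 replicate 2 and in both controls, and Clec9a in DKK2 replicate 2 and control replicate 1. Neutrophil markers summed to 3514 and 115 FPKM under DKK2, whereas controls had 1.06 and 58.2 FPKM, with 4 of 8 listed at 0 in control replicate 1. T cell markers summed to 225 and 179 FPKM beside 28.9 and 130 FPKM in controls, and Cd8a and Cd8b1 were listed at 0 in control replicate 1. Markers of other innate lymphoid cells, some of which also make class II, summed to 39.1 and 78.8 FPKM beside 17.8 and 51.8 FPKM in controls, and Ccr6 was listed at 0 in control replicate 1. The part of these cells in the class II values was not tested.

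Genes of the factors on which CIITA docks were compared with the class II genes library by library. Of 7 subunits of RFX, NF-Y and CREB, 2 were higher and 5 lower in the fit, 0 passed limma, and their median was -0.08 (0.09 without control replicate 1). Nfyb was at 39.2 and 37.4 FPKM under DKK2, whereas controls had 42.5 and 35.9 FPKM. Nfya was at 21.4 and 35.1 FPKM beside 37.3 and 35.6 FPKM in controls, and Creb1 at 19.9 and 23.4 FPKM beside 28.4 and 24.8 FPKM in controls. Rfx5, named here for its role on the X box and outside the naming rule, was at 3.47 and 11.9 FPKM beside 9.62 and 7.81 FPKM in controls. Control replicate 1, lowest for all 10 class II genes, was lowest for none of these 7 subunits and for 18.0% of all genes tested. With so few subunits this count does not set them apart from other genes. Their part in the class II values was not tested.

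Interferon-gamma is the classical inducer of CIITA in cells that do not make it constitutively. Of 8 genes from the cytokine to its feedback, 5 were higher and 3 lower (median 0.18, or 0.08 without control replicate 1, 0 passed limma). Control replicate 1 was lowest for 5 of the 8 and highest for 2, and it was lowest for 18.0% of all genes tested. Ifngr2, among those 5, was at 4.52 and 10.99 FPKM under DKK2, whereas controls had 0.366 and 5.37 FPKM. Irf1, also among them, was at 88.75 and 137.4 FPKM beside 53.9 and 90.78 FPKM in controls. Ifng itself was at 64.8 and 87.8 FPKM under DKK2, whereas controls had 255 and 93.3 FPKM, so control replicate 1 was highest. Whether Ifng bears on the class II values was not tested. Ifngr1, the ligand-binding receptor chain, was at 407 and 363 FPKM beside 316 and 363 FPKM in controls. Jak1, a kinase bound to the receptor, was at 197 and 291 FPKM beside 267 and 227 FPKM in controls.

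Endosomal proteases and a thiol reductase, which process the invariant chain and antigens, were mostly high where class II genes were. Of 7 tested, 6 were higher and 1 lower in the fit, with a median of 1.38 and 0 passing limma. Ctss (cathepsin S), which removes the invariant chain in B cells and dendritic cells, was at 376 and 479.5 FPKM under DKK2, whereas controls had 58.2 and 273 FPKM. Ctsh was at 73.5 and 106 FPKM beside 0.209 and 63.7 FPKM in controls, and Ctsb at 103 and 129 FPKM beside 35.7 and 74.8 FPKM in controls. Ctsd, an aspartic protease common to lysosomes, did not follow this order, with 922 and 1323 FPKM under DKK2 beside 1227 and 1099 FPKM in controls. The median of the 7 was 0.46 once control replicate 1 was left out.

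Costimulatory molecules, which give T cells a further signal, were tested in 5 cases, of which 4 were higher and 1 lower (median 1.22, without control replicate 1 0.42, 0 passed limma). Cd40 was at 8.64 and 18.4 FPKM under DKK2, whereas controls had 0.0482 and 9.21 FPKM. Cd86 was at 8.73 and 8.38 FPKM beside 0.220 and 6.35 FPKM in controls, and Cd83, which limits the turnover of class II molecules, at 13.2 and 8.52 FPKM beside 2.35 and 6.86 FPKM in controls. Icosl was highest in control replicate 1, with 4.69 and 6.19 FPKM under DKK2 and 10.2 and 4.90 FPKM in controls.

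The genes whose pattern over the 4 libraries was nearest to the mean of the 10 were found by Euclidean distance between centred log2(FPKM + 1) profiles. In order of distance they were Cd200, Ctss, Lilrb3, S1pr1, BC028528, AF251705, Hp, Trbv13-3, Mpo and Cd200r3, at distances of 0.136 to 0.343 log2 units. Cd200 was at 7.51 and 10.8 FPKM under DKK2, whereas controls had 0.104 and 5.66 FPKM. The 10 class II genes lay farther from their own mean, from 1.44 for H2-DMb2 to 2.80 for H2-Aa, so that the mean profile stands for no single one of them.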

How the data were processed

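Per the labels' protocols, RNA was extracted with a column kit and libraries were prepared with a stranded total RNA kit. The authors deposited 1 table of FPKM values, named so per the file headers, for 4 libraries. Tools listed per the submitters' processing notes, with no roles, are edgeR, Cuffdiff 2.1.0, TopHat2 2.1.0 and CASAVA, and the build is mm9. The annotation, the use of strand and the sharing of multiply mapped fragments are likewise not stated in the sources used, so genes with close copies are uncertain. FPKM values are not counts, and a 0 in the table can also be an estimate that failed.

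From this table log2(FPKM + 1) was computed, and genes averaging 1 FPKM or more were fitted by limma 3.58.1 under R 4.3.3 (trend on the mean, Benjamini-Hochberg adjustment, threshold 0.05). The code of the fit was run on simulated data with a small, fixed spread, which does not show how it performs at the spread of these libraries. Relative depth came from the most frequent value of FPKM times length (less 210 bases) for genes with 1 transcript in GENCODE M21, within 5%, and fragment numbers are approximate for this reason. Sequences are from RefSeq (GRCm38.p6), and no coordinates of the deposited build were used. Transcripts were aligned with Biopython 1.88. Named genes are the 10 members, up to 4 of each other list by highest mean, and the 10 nearest profiles. Rfx5, Nlrc5, Psmb9, Itga2, C1qa, C1qc, Adgre1, Cd14, Ifngr2, Irf1, Cd209a, Clec9a and Cd8a fall outside this rule. They were named after their values were seen. Members and lists were chosen with earlier results of these data known. H2-Ea, Sppl2a, Ighd, March1 and March8 were not analysed here, and single values of some list genes are not reported here. Alternatives changed the pseudocount, the filter, the scaling, the variance model, the block and the libraries used.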

Additional observations from a re-analysis of the deposited data

How the results depend on the processing

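The 12 alternatives gave 116 values for single class II genes, of which 110 kept their direction. Changing the filter, dropping the trend or adding the replicate block cannot alter a fitted value. Agreement in direction there was fixed in advance. In all 12, 0 of the 10 genes passed limma, at a smallest adjusted p of 0.168 (H2-Aa without control replicate 2) and of 0.596 or more in the other 11. The direction turned only where a library was left out. Over the fits without 1 library the log2 fold change ranged from -0.07 to 1.36 for H2-DMb2, from -0.013 to 1.15 for H2-Oa, from -0.32 to 1.21 for H2-Ob and from -0.066 to 1.14 for Ciita. It ranged from 0.98 to 6.29 for H2-Aa, from 1.53 to 5.70 for H2-Ab1, from 0.98 to 5.25 for H2-Eb1, from 0.85 to 5.56 for Cd74, from 0.56 to 1.46 for H2-DMa and from 1.07 to 1.51 for H2-DMb1. The lowest value was without control replicate 1 and the highest without control replicate 2, except that for H2-DMa they were without DKK2 replicate 2 and without DKK2 replicate 1, and H2-Oa was lowest and highest without these same libraries. H2-Ob and Ciita turned without control replicate 1 and without DKK2 replicate 2, H2-DMb2 without the first and H2-Oa without the second. The number of members with both groups apart was 6 to 10 in those fits, 10 without control replicate 2 or DKK2 replicate 1, where fewer libraries have to differ. With a filter at a mean of 5 FPKM the median of the members was 3.16, because only 6 of them were left. With a pseudocount of 0.1 or 0.01 it was 1.58 or 2.103, H2-DMb2 had 1.70 or 2.39, Ciita 1.37 or 1.82 and H2-Ob 0.97 or 1.16. Quantile normalization gave 0.23 for H2-DMb2, 0.14 for Ciita and 0.053 for H2-Ob. Over all genes 4 passed in the reported fit, 0 with no filter on low values (949 at an unadjusted p under 0.05), and 0 in each fit without 1 library (150 to 855 at an unadjusted p under 0.05). With the replicate number as a block 8 genes passed, none of them a class II gene. The labels do not say that a number is shared between groups, and the deviations of same-numbered libraries from their group means had r = 0.01 over 12275 genes, so the block is given only here. Depth limits the lowest values, such as H2-DMb2 in control replicate 1 with about 3 fragments.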

Other observations

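The class I pathway, which all nucleated cells use, was at high levels in every library. Of its 9 genes on the list all were higher in the fit, where 5357 of all 12275 genes tested were. In 3 of the 9 (H2-K1, Psmb9 and Nlrc5) both DKK2 values exceeded both control values, against 11.8% of all genes, and 0 passed limma (median 0.19, or 0.30 without control replicate 1, against -0.05 over all genes tested). B2m, the light chain, was at 4450 and 5332 FPKM under DKK2, whereas controls had 4870 and 4670 FPKM. H2-D1, a heavy chain, was at 1266 and 1747 FPKM under DKK2, whereas controls had 1283 and 1207 FPKM. H2-K1, the other heavy chain, was at 1204 and 1568 FPKM under DKK2, whereas both controls had 1102 FPKM. Psmb8, a subunit of the immunoproteasome, was at 286 and 398 FPKM under DKK2 beside 364 and 302 FPKM in controls. Control replicate 1, lowest for all 10 class II genes, was lowest for 1 of these 9 and for 18.0% of all genes tested. That count does not set the 9 apart from other genes. The gene was H2-K1, where the controls were the same to 4 digits.

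Nlrc5, the class I counterpart of Ciita, was at 31.9 and 29.2 FPKM under DKK2, whereas controls had 26.6 and 22.1 FPKM. It is named for its role and was outside the naming rule. In control replicate 1 Nlrc5 lay between the levels of the other libraries, whereas Ciita was at 0.0741 FPKM there and at 0.620 FPKM or more elsewhere.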
